A study of Mus musculus with 2 samples.

Results

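The genes described are those of the mitochondrial ribosome named by the symbols Mrpl (large subunit) and Mrps (small subunit) followed by a number. They were chosen by symbol and not by their values, though earlier results of these data were known. Of the 31920 gene symbols in the deposited table, 76 matched, 47 Mrpl and 29 Mrps genes on 17 chromosomes. The study sequenced polyadenylated RNA of the cardiac left ventricle from male 129-SvEv mice aged 10 weeks. The wildtype group and the Lamp2 knockout group held 1 library each, with 8410593 and 8773820 reads assigned to genes, and the series asks what loss of the lysosomal membrane protein LAMP2 does to the heart. With 1 library a group, differences cannot be checked against replicates and no p-value is given. Every interval is an exact 95% interval that covers counting error only.

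Mitochondria keep ribosomes of their own, which translate the few messenger RNAs of the mitochondrial genome into membrane subunits of the respiratory chain and the ATP synthase. The RNAs of these ribosomes come from the mitochondrial genome, while all of their proteins are encoded in the nucleus, made in the cytosol and imported. Some of the proteins descend from those of the bacterial ribosome and others are found only in mitochondria. Heart muscle depends heavily on this system because it is rich in mitochondria and makes most of its ATP by respiration.

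Some facts of both libraries bear on every value. Lamp2 was counted with 990 wildtype reads and 986 reads of the second library. Per 1000000 assigned reads (RPM) this was 118 and 112, a ratio of 0.955 (0.873 to 1.04). The labels do not say which part of the gene is removed, so this level does not check the genotype, and that library is called knockout-labelled below. Rows of the mitochondrial genome took 26.5% of wildtype reads and 16.2% of knockout-labelled reads, a share on which the RPM of every other gene depends. The 7 ventricular cardiomyocyte markers lay between 2383 and 19313 RPM, while the atrial markers Myl7, Myl4 and Sln reached at most 2.26 RPM. Nppa, also listed as an atrial marker and known as a gene of wall stress, was at 2868 and 10987 RPM. Summed markers in the wildtype and the second library were 490 and 515 RPM for endothelium, 459 and 447 RPM for fibroblasts (mostly Dcn, while Col1a1 was at 28.5 and 6.50 RPM and Tcf21 at 8.44 and 4.67 RPM), 46.0 and 56.5 RPM for macrophages (3 of 4 markers present) and 91.8 and 64.5 RPM for smooth muscle. No marker present was at 0. Their part in the results below was not tested, and in bulk tissue fewer cells of a type and less RNA per cell cannot be told apart.

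Transcripts of nearly all members were present, over a wide range of levels. At least 5 RPM in the higher library, the minimum for a ratio, was reached by 74 of 76 members, 46 Mrpl and 28 Mrps genes. To compare genes, RPM were divided by the length in kilobases of the longest annotated protein-coding transcript. The isoform in use is not known, so these are approximate levels. On this scale the wildtype levels of the 74 members spanned 55.8-fold, and the order of members was nearly the same in both libraries (Spearman's rho 0.990 across 74 genes, a description, since the genes share both libraries).

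The highest wildtype levels per kilobase were those of genes with short coding transcripts, which division by length itself raises. Before that division, Spearman's rho between coding length and wildtype RPM was −0.18 across members. For Mrpl33 and Mrpl42 the coding length used was 478 and 666 bases, while their longest annotated transcripts of any type have 2741 and 3277 bases. Mrpl33, a short protein with a bacterial counterpart, stood at 148 RPM per kilobase in the wildtype and 155 in the knockout-labelled library. Mrpl42, found only in mitochondria, was at 134 and 138 RPM per kilobase. Mrpl54 and Mrpl14 followed at 121 and 114 RPM per kilobase in the wildtype, and at 183 and 121 in the other library. Mrpl54 thus took the top place in the knockout-labelled library. Among Mrps genes, Mrps34 (117 and 132 RPM per kilobase) was highest in both libraries. Its exons overlap 763 bases of Nme3 on the same strand and 1309 bases of Mapk8ip3 on the opposite strand, so its level may include their reads. Mrps21, Mrps18a and Mrps28 came next in the wildtype at 88.9, 83.3 and 77.7 RPM per kilobase, and stood at 94.4, 117 and 87.8 in the knockout-labelled library. Exons of Mrpl33 and Mrpl14 also overlap other genes, and Mrpl42 and Mrps21 each have a near-identical annotated pseudogene, so these ranks are uncertain.

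**Figure D1:**
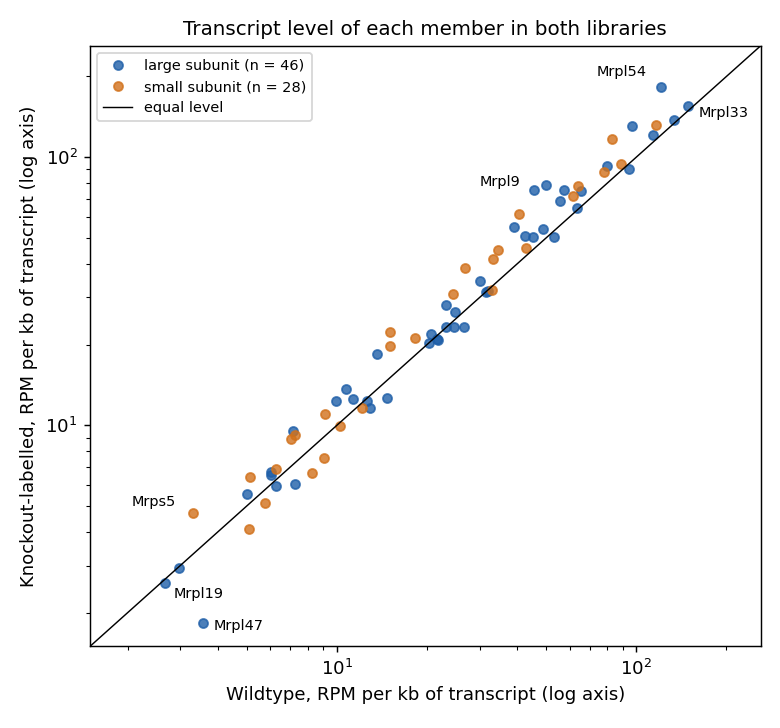
Level of each measured member in the wildtype library (horizontal axis) and the knockout-labelled library (vertical axis), in RPM per kilobase of the longest protein-coding transcript, on log axes. Each point is 1 gene, coloured by subunit, and the line marks equal levels; points lie close to the line over the 55.8-fold range, with Mrpl47 below it and Mrpl9 and Mrpl54 above.

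At the lower end stood genes with long coding transcripts, which the same division lowers. Mrpl19, Mrpl1 and Mrpl47 were at 2.66, 2.98 and 3.57 RPM per kilobase in the wildtype, and at 2.58, 2.95 and 1.83 in the knockout-labelled library. The lowest Mrps genes were Mrps5 (3.32 and 4.71 RPM per kilobase), Mrps17 (5.10 and 4.12) and Mrps25 (5.11 and 6.42). On the opposite strand, exons of Mrpl19 overlap 1962 bases of Gcfc2 and those of Mrps25 overlap 4590 bases of Nr2c2. Mrps5 and Mrps25 each have a near-identical annotated pseudogene, so these levels are uncertain too. The median level of Mrpl genes was 24.8 RPM per kilobase in the wildtype and 24.9 in the knockout-labelled library, and that of Mrps genes was 16.7 and 21.7.

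The members under the minimum were Mrpl23, with 12 wildtype reads and 9 knockout-labelled reads, and Mrps33, with 36 and 28 reads. Their ratios of knockout-labelled to wildtype RPM were 0.719 (0.268 to 1.86) and 0.746 (0.438 to 1.26), which the depth does not separate from 1. Both have a near-identical annotated pseudogene, Mrpl23-ps1 with 100% identity over 507 bases and Gm5776 with 99.7% over 321 bases. How reads that match several places were counted is not given in the sources used here, so these low counts are uncertain. Just inside the minimum was Mrpl27, at 5.47 and 4.56 RPM.

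No member differed 2-fold between the libraries. The log2 ratio was taken between knockout-labelled and wildtype RPM, each with 1 RPM added, and a gene was called at a size of 1 or more. By this rule 0 of 74 members were called higher and 0 lower, beside 3.35% and 2.37% of the 10209 measured genes. The log2 ratio was above 0 for 50 of 74 members (67.6%), near the 61.2% of all measured genes. Its median was 0.15 (quartiles −0.04 and 0.32), near the 0.11 of all measured genes (−0.16 and 0.39). The members' middle 50% of ratios spanned 0.36 on the log2 scale, against 0.55 for all measured genes, and 94.6% of members lay within 1.5-fold, against 79.9%. The counting interval of the RPM ratio lay above 1 for 29 members, below 1 for 3 and spanned 1 for 42, where 35.0% of all measured genes lay above and 16.8% below. Summed levels, here and below, cover every gene of a group in the table, also those under the minimum. Over all 76 members the sum was 3107 RPM in the wildtype and 3606 RPM in the knockout-labelled library, a ratio of 1.16 (1.14 to 1.18).

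Other scales move the members along with all genes. Dividing by the median ratio of all genes, or by a trimmed mean of log ratios, lowers log2 ratios by up to 0.12, and the members' median became 0.03 with either, with 40 of 74 above 0. All measured genes then had medians of −0.005 and −0.007, with 49.6% and 49.4% above 0. A total that leaves out mitochondrial transcripts and the 10 most abundant genes lowers them by up to 0.20, and the members' median became −0.04, with 31 of 74 above 0, beside −0.08 and 42.2% for all measured genes. On these scales 17, 17 and 11 members had intervals above 1 and 7, 8 and 14 below 1. The corresponding shares of all measured genes were 25.9%, 25.7% and 20.4% above and 24.1%, 24.3% and 30.3% below.

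Among large subunit genes, the highest ratio was that of Mrpl9, a protein with a bacterial counterpart, encoded on chromosome 3 from 94443336 to 94448708 (mm10). Its 636 wildtype reads and 1100 knockout-labelled reads were 75.6 and 125 RPM, a ratio of 1.66 (1.5 to 1.83). Its exons overlap 157 bases of Oaz3 on the opposite strand, and Oaz3 had 1 read and 0 reads. Mrpl20 (chromosome 4, 155803618 to 155808829) was at 38.2 and 60.0 RPM, a ratio of 1.57 (1.36 to 1.81). Mrpl54 (chromosome 10, 81264722 to 81266926), specific to mitochondria, was at 73.2 and 110 RPM, a ratio of 1.51 (1.36 to 1.67). These 3 genes were the only members at least 1.5-fold higher on the log2 scale with the pseudocount, beside 12.8% of all measured genes. Mrpl15, the most abundant of the 5 highest in RPM, was at 164 and 231 RPM (1.41, 1.32 to 1.51), and Mrpl52 at 44.8 and 60.6 RPM (1.35, 1.18 to 1.55). The interval of each of these 5 genes lay above 1.

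The lowest ratio of any member was that of Mrpl47, which encodes a large subunit protein with a bacterial counterpart (chromosome 3, 32727497 to 32736755). Its 101 wildtype reads and 54 knockout-labelled reads were 12 and 6.15 RPM, a ratio of 0.513 (0.361 to 0.720), and it was the only member at least 1.5-fold lower, beside 7.30% of all measured genes. Its log2 ratio of −0.86 was short of a call, but on the scale that leaves out mitochondrial transcripts and the 10 most abundant genes it was called lower. On the opposite strand its exons overlap 452 bases of Actl6a (8.44 and 8.89 RPM) and 616 bases of Ndufb5 (329 and 411 RPM), and no source used here says that strand was counted. Reads of Mrpl47 can therefore not be told apart from theirs. The other low Mrpl genes were Mrpl27 (ratio 0.834, 0.532 to 1.30), Mrpl45 (35.7 and 30.8 RPM, 0.863, 0.729 to 1.02), Mrpl41 (20.7 and 18.0 RPM, 0.870, 0.697 to 1.09) and Mrpl50 (27.3 and 24.6 RPM, 0.900, 0.744 to 1.09). The interval of each of these 4 included 1.

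**Figure D2:**
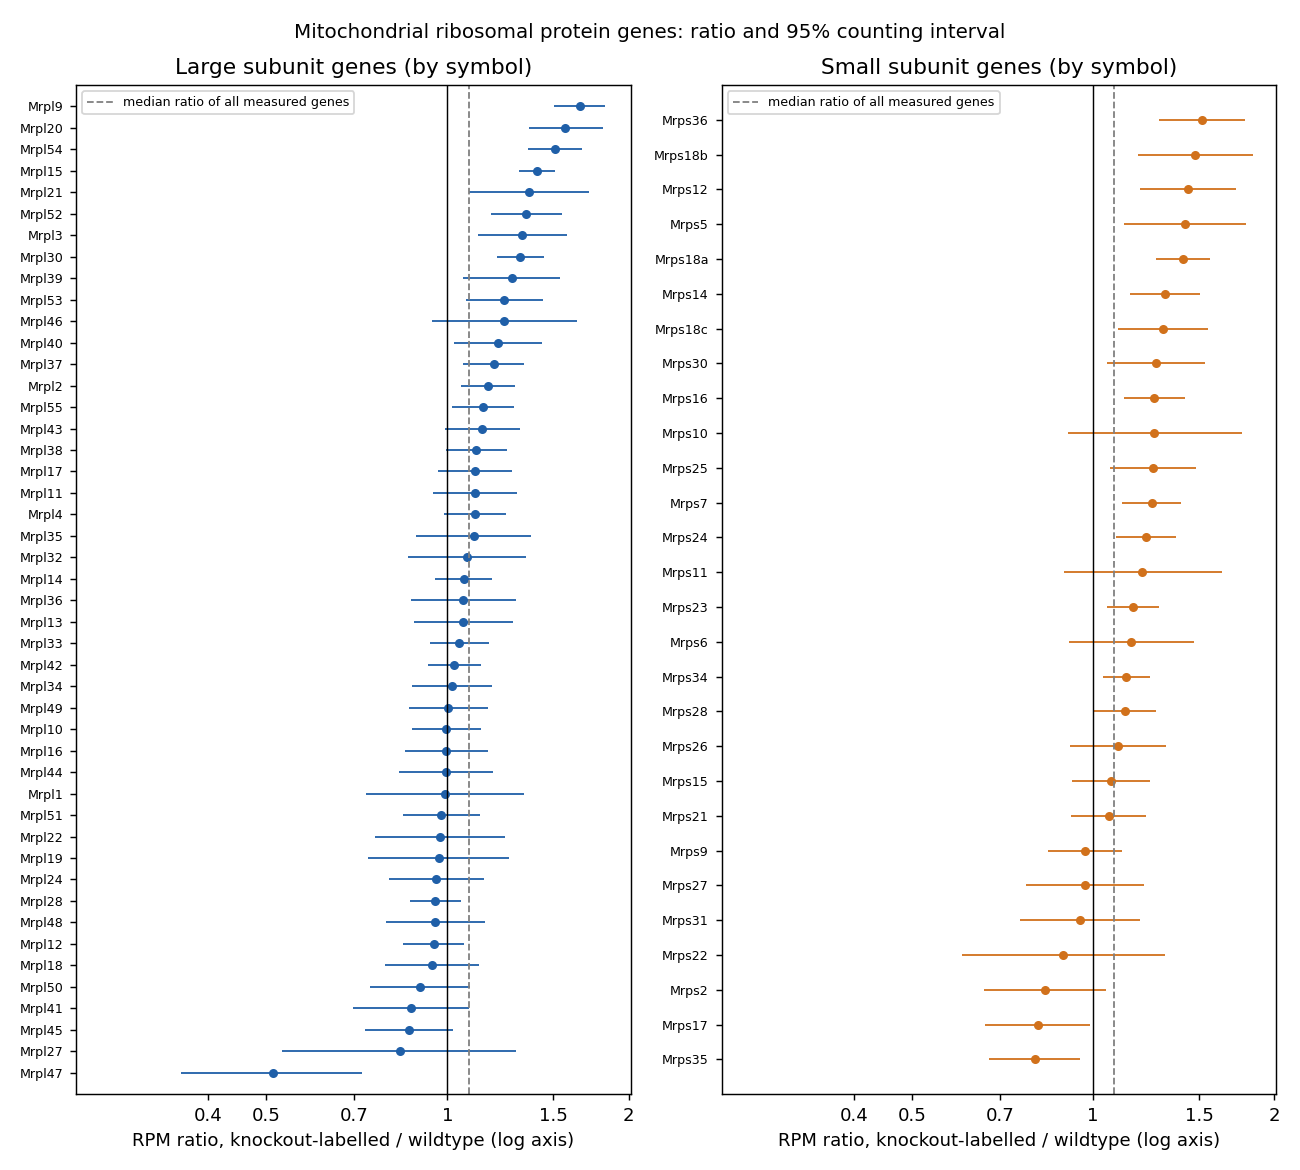
Ratio of knockout-labelled to wildtype RPM (log axis) for each of the 46 measured Mrpl genes (left) and 28 measured Mrps genes (right). Points are ratios, bars are exact 95% counting intervals, the solid line marks equal RPM and the dashed line the median ratio of all measured genes; most points lie right of the solid line, while Mrpl47 stands apart at 0.513.

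Among small subunit symbols, Mrps36 had the highest ratio. Its product is named for the ribosome but is absent from the mammalian mitoribosome structure, and is known as a part of the 2-oxoglutarate dehydrogenase complex. It was at 28.4 and 43.1 RPM, a ratio of 1.52 (1.29 to 1.79), and 4 near-identical copies make its count uncertain. Mrps18b (16.3 and 24.0 RPM, 1.48, 1.19 to 1.84) and Mrps5 (14.9 and 21.1 RPM, 1.42, 1.12 to 1.79) each have 1 such copy. Exons of Mrps18b also overlap 638 bases of Gm16279 on the opposite strand. Mrps12, the counterpart of the bacterial decoding-centre protein S12, had 199 and 298 reads, 23.7 and 34.0 RPM, with a ratio of 1.44 (1.20 to 1.73) and neither an annotated copy nor an exon overlap. Mrps18a, which sits in the large subunit of the mammalian structure despite its symbol, was at 73.6 and 104 RPM (1.41, 1.27 to 1.56). All 5 intervals lay above 1.

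At the other end, Mrps35 (34.5 and 27.6 RPM, ratio 0.800, 0.672 to 0.952) and Mrps17 (25.8 and 20.9 RPM, 0.808, 0.660 to 0.989) were the only Mrps genes with an interval below 1. Mrps35 lies on chromosome 6 from 147042770 to 147070902 and Mrps17 on chromosome 5 from 129715528 to 129718691. Neither has an annotated near-identical copy or an exon overlap. Mrps2 (18.9 and 15.7 RPM, 0.832, 0.657 to 1.05), Mrps22 (6.90 and 6.15 RPM, 0.892, 0.604 to 1.32) and Mrps31 (18.4 and 17.6 RPM, 0.952, 0.757 to 1.20) had intervals that included 1.

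By symbol, the small subunit had a somewhat higher median than the large one, by an amount that varied with the setting. Of 46 Mrpl genes, 29 had a log2 ratio above 0, 14 had an interval above 1 (30.4%) and 1 below, with a median of 0.09. Of 28 Mrps genes, 21 were above 0, 15 had an interval above 1 (53.6%) and 2 below, with a median of 0.23. Over all measured genes, 61.2% were above 0, 35.0% had an interval above 1 and 16.8% below. Summed levels were 2058 and 2372 RPM for the 47 Mrpl genes, a ratio of 1.15 (1.13 to 1.18), and 1049 and 1234 RPM for the 29 Mrps genes, a ratio of 1.18 (1.14 to 1.21). These intervals of the summed ratios overlap. The Mrpl minus Mrps median was −0.15 on the log2 scale. It was −0.18 with a minimum of 20 RPM, −0.16 with a pseudocount of 0.1 RPM and −0.12 with one of 5 RPM. The 3 rescalings shift both medians nearly alike, so the −0.15 under each of them does not check the difference. The difference was −0.10 when genes were placed by the mammalian ribosome structure, which moves Mrps18a and Mrps30 to the large subunit and leaves out Mrps36. Placed so, 33.3% of large and 48% of small subunit genes had an interval above 1. The summed ratios then had the other order, 1.16 (1.14 to 1.19) for the large and 1.14 (1.11 to 1.18) for the small subunit, with overlapping intervals. By symbol, the Mrpl minus Mrps difference was −0.08 with means and −0.07 after the length correction described below (−0.11 with coding length). It was −0.05 without members that have near-identical copies and −0.02 without members whose exons overlap another gene.

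Ancestry of the proteins did not divide the members in 1 direction. The 45 measured members with a bacterial counterpart had a median log2 ratio of 0.14, with 31 above 0, and a summed ratio of 1.16 (1.14 to 1.19). The 28 members classed as specific to mitochondria had a median of 0.17, with 18 above 0, and a summed ratio of 1.15 (1.12 to 1.18). This classing places Mrps18a and Mrps18b here but their namesake Mrps18c with the bacterial counterparts, and their ancestry can be classed otherwise. Both had high log2 ratios (0.49 and 0.53), and medians with them in the other class were not computed. Within the large subunit by structure the median was 0.08 for 29 genes with a bacterial counterpart and 0.19 for 19 without. Within the small subunit the order was the other way, 0.27 for 16 genes and 0.13 for 9 genes.

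Transcript length was examined because these genes are short. The longest annotated transcript had a median of 1807 bases for members, against 3536 bases over the 9688 measured genes with an annotated length (94.9% of those measured). Only 15.8% of measured genes were shorter than the median member. Across all genes the log2 ratio was higher for short transcripts. Its median in 5 length groups of equal number, from the shortest (70 to 2031 bases) to the longest (5495 to 123179 bases), was 0.24, 0.14, 0.09, 0.08 and 0.02. Spearman's rho between length and log2 ratio was −0.16 across all genes and −0.18 across members, given as descriptions, since genes share both libraries.

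Of the 74 measured members, 40 fell in the shortest group. Their median log2 ratio was 0.19, against 0.25 for the other genes of that length, and 30 of the 40 were above 0 (73.7% of all genes in that group were). The next 14 members had a median of 0.08, against 0.14 for other genes of their length, and the following 9 and 8 members had medians of 0.04 and 0.04, against 0.09 and 0.08. Only the 3 members in the longest group went the other way, with a median of 0.15 against 0.02. After the median of its own one of 20 length bins was subtracted from each member, the members' median was −0.04 and 31 of 74 were above 0. With the longest coding transcript as the length, an alternative added after the data were seen, these were −0.10 and 30 of 74. The length-corrected median was −0.07 for Mrpl genes and 0.01 for Mrps genes.

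**Figure D3:**
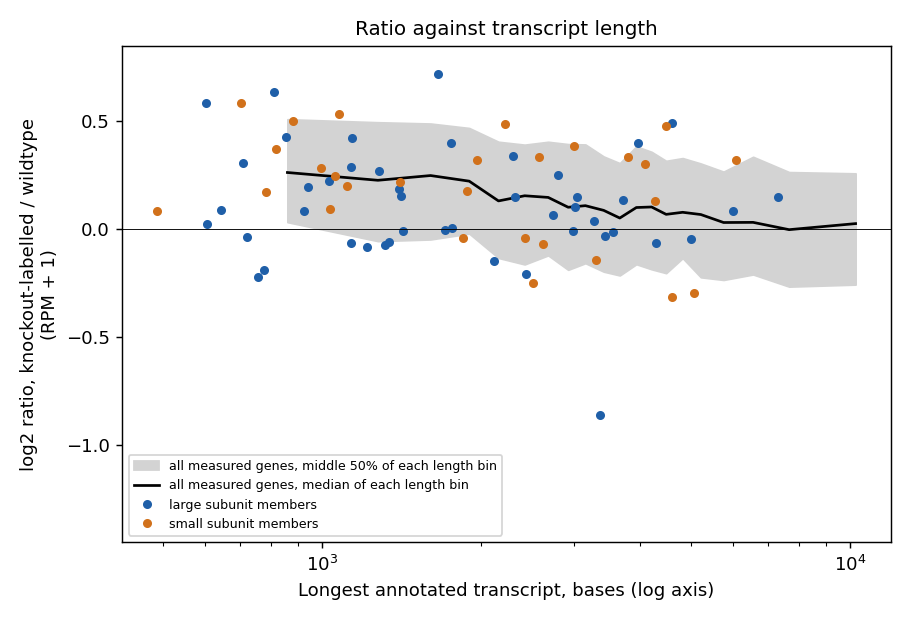
Log2 ratio (knockout-labelled over wildtype, RPM + 1) of each measured member against its longest annotated transcript in bases (log axis), coloured by subunit. The black line and grey band give the median and middle 50% of all measured genes in 20 length bins; the line falls with length, most members lie within or near the band, and Mrpl47 stands below it.

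Cytosolic ribosomal protein genes and nuclear genes of the respiratory chain, the other protein sets of translation and respiration, had higher median ratios, and shorter transcripts. Their longest transcripts had medians of 1136 and 1082 bases, against 1807 for the members. Of 98 symbols of the Rpl or Rps form, which include S6 kinase and pseudogene symbols, 68 were measured, with 2 called higher and 1 lower. Of these, 57 were above 0, 44 had an interval above 1 and 1 below, with a median log2 ratio of 0.42 and a summed ratio of 1.42 (1.40 to 1.44). Of 87 respiratory chain symbols, 83 were measured and 0 called in either direction. For them, 71 were above 0, 64 had an interval above 1 and 4 below, with a median of 0.26 and a summed ratio of 1.20 (1.19 to 1.20). Among all measured genes, 3.35% were called higher and 2.37% lower, 61.2% were above 0, 35.0% had an interval above 1 and 16.8% below. The members' summed ratio of 1.16 (1.14 to 1.18) was below that of the cytosolic ribosome beyond counting error, and its upper bound was just under the lower bound for the respiratory chain. After subtraction of length-bin medians, the median was 0.21 for Rpl and Rps symbols (66 with a length), −0.002 for the respiratory chain and −0.04 for the members. The spread between animals is unknown for all of these ratios.

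**Figure D4:**
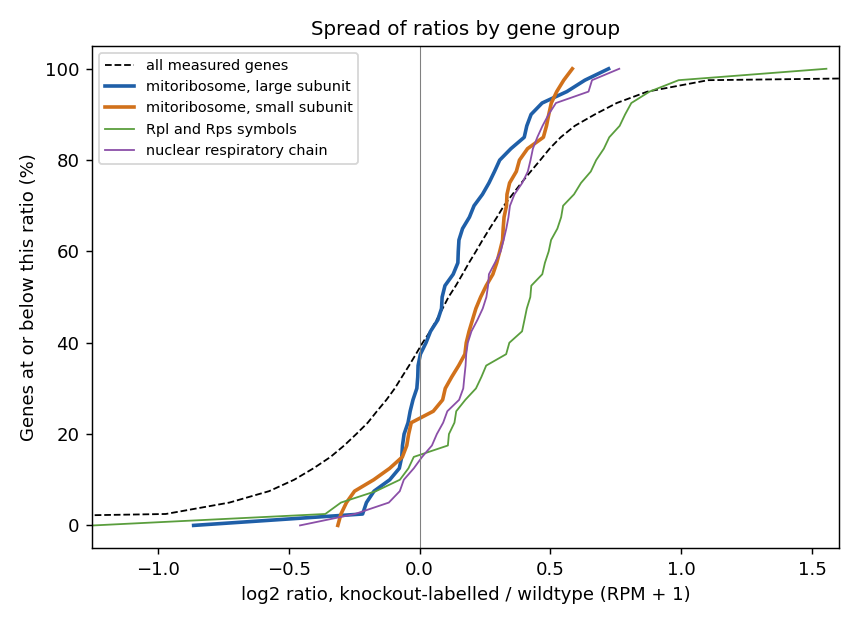
Cumulative share of genes (percent) at or below each log2 ratio (knockout-labelled over wildtype, RPM + 1) for large and small subunit members, Rpl and Rps symbols, nuclear respiratory chain genes and all measured genes. The curves of the members are steeper than that of all genes and lie left of the Rpl and Rps curve, whose median is 0.42; on the scale without mitochondrial transcripts all curves shift left by up to 0.20.

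On the RPM scale, the ribosomal RNAs that these proteins bind lay on the other side of 1 from the members' summed ratio of 1.16. The 12S RNA of the small subunit (row mt-12SrRNA) was at 4460 RPM in the wildtype and 3629 RPM in the knockout-labelled library, a ratio of 0.814 (0.802 to 0.826). The 16S RNA of the large subunit (row mt-16SrRNA) was at 15699 and 13308 RPM, a ratio of 0.848 (0.841 to 0.854). The libraries were made from polyadenylated RNA, so these levels need not follow the amount of assembled ribosomes.

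Proteins of the mitochondrial ribosome that carry other names were described by a list chosen for their function. Of 6 measured genes, 0 were called, 5 lay above 0 and the median log2 ratio was 0.09, with a summed ratio of 1.19 (1.14 to 1.25). Chchd1, a small subunit protein, was at 84.3 and 128 RPM (ratio 1.51, 1.38 to 1.67), and Aurkaip1, also of the small subunit, at 56.2 and 81.3 RPM (1.44, 1.28 to 1.63). Ptcd3 was at 60.3 and 52.4 RPM (0.870, 0.765 to 0.989), the 1 gene of the list with an interval below 1, and Ict1, a peptidyl-tRNA hydrolase built into the large subunit, had a ratio of 1.01. Mrp63, an older symbol of the large subunit gene Mrpl57, falls outside the symbol rule and was chosen once its value was known. It had 415 and 730 reads, 49.3 and 83.2 RPM, with a ratio of 1.69 (1.49 to 1.91), above that of Mrpl9.

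Genes that act on or with the mitochondrial ribosome had medians nearer 0 or below it, and longer transcripts. Median lengths were 2682 bases for translation factors, 2353 for assembly, 3349 for tRNA synthetases and 3015 for transcription and RNA processing, against 1807 for the members. No length correction was applied to these lists. For comparison, 3.35% of all measured genes were called higher and 2.37% lower, 61.2% were above 0, and 35.0% had an interval above 1 and 16.8% below. Of 12 measured translation factors (17 listed, 14 in the table), 0 were called, 6 were above 0, 3 had an interval above 1 and 2 below, with a median log2 ratio of 0.03. Tufm, the elongation factor that brings transfer RNAs to the ribosome, was highest at 13.9 and 24.4 RPM (1.75, 1.39 to 2.22), followed by the recycling factor Mrrf at a ratio of 1.23. Lowest were the release factor Mtrf1 (0.671, 0.423 to 1.05) and Lrpprc (0.834, 0.750 to 0.926), which stabilises mitochondrial messenger RNAs. Of 21 measured genes of ribosome assembly and ribosomal RNA modification (31 listed, 24 in the table), 0 were called, 12 were above 0, 2 had an interval above 1 and 0 below, with a median of 0.04. By log2 ratio with the pseudocount, Mterfd2, a ribosome assembly factor (ratio 0.682), and Mettl17 (0.793) were lowest. Highest were the GTPase Gtpbp5 (1.39, 1.06 to 1.83) and Mpv17l2 (1.43, 1.14 to 1.81).

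A further list held aminoacyl-tRNA synthetases of mitochondria, which load transfer RNAs with amino acids, and subunits of the glutamyl-tRNA amidotransferase such as Qrsl1 and Gatc. Of its 19 measured genes (22 listed, 21 in the table), 0 were called and 8 were above 0. Their median log2 ratio was −0.09, 3 had an interval above 1 and 3 below, and the summed ratio was 0.875 (0.844 to 0.907). Lars2, for leucine, had the most weight in that sum, at 327 and 222 RPM (0.680, 0.641 to 0.720). It held 2748 of the 6206 wildtype reads and 1948 of the 5665 knockout-labelled reads of the list. The summed ratio below 1 therefore rests on Lars2 and does not describe the list as a set. Rars2, for arginine, had the lowest ratio (0.606, 0.404 to 0.901). Yars2, for tyrosine (1.33, 1.04 to 1.71), and Gars, for glycine in both the cytosol and mitochondria (1.26, 1.10 to 1.44), were highest. Of 13 measured genes of mitochondrial transcription and RNA processing (20 listed, 14 in the table), 3 were above 0 and the median was −0.15. The interval lay above 1 for 1 gene, below 1 for 2 and spanned 1 for 10. The summed ratio was 1.04 (0.9999 to 1.09), in which Hsd17b10 held 1709 of 4351 wildtype and 2113 of 4730 knockout-labelled reads. Fastkd1, an RNA-binding protein, was called lower at 8.56 and 3.08 RPM (0.359, 0.222 to 0.567), and 0 were called higher. Tfb2m, a mitochondrial transcription factor, had a ratio of 0.654 (0.460 to 0.924), while the tRNA-processing genes Elac2 and Hsd17b10 had ratios of 1.23 and 1.19 (1.11 to 1.26 for Hsd17b10).

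Among 10 regulators of nuclear genes for mitochondria, the coactivators Ppargc1a and Ppargc1b were called lower and 0 were called higher, beside 2.37% and 3.35% of all measured genes. Ppargc1a was at 76.5 and 30.2 RPM (ratio 0.395, 0.341 to 0.457) and Ppargc1b at 31.5 and 14.7 RPM (0.467, 0.375 to 0.578). The third coactivator of that family, Pprc1, had a ratio of 1.02, as did the nuclear receptor Esrra. The DNA-binding factors that occupy many promoters of these genes were Nrf1 (9.87 and 12.7 RPM, 1.28, 0.956 to 1.72), the ETS factor subunits Gabpa (1.02) and Gabpb1 (1.13), and Yy1 (28.3 and 41.1 RPM, 1.45, 1.23 to 1.72). Tfam, which packages and transcribes mitochondrial DNA, had a ratio of 0.869 (0.704 to 1.07), and Myc a ratio of 0.991. Yy1 was the 1 regulator with an interval above 1.

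Promoters of the members were searched for the core motifs of those DNA-binding factors. RefSeq promoter windows (GRCm38.p6, 250 bases before to 50 after a start) were present for 67 members and were searched on both strands for GCGCA, any base, then GCGC (NRF1), CCGGAAG (ETS factors) and AANATGGCG (YY1). The windows below are shown because they contain 1 motif each in the first 3 cases and none in the last, and belong to genes at the upper end (Mrpl9, Mrps12), near the middle (Mrps11) and at the lower end (Mrpl47) of the ratios. They lie at chr3:94443086-94443385 (Mrpl9, plus strand), chr7:28741772-28742071 (Mrps12, minus strand), chr7:78782881-78783180 (Mrps11, plus strand) and chr3:32736706-32737005 (Mrpl47, minus strand). Capitals mark the motif, which is NRF1 in Mrpl9, ETS in Mrps12 and YY1 read on the opposite strand in Mrps11.
Mrpl9: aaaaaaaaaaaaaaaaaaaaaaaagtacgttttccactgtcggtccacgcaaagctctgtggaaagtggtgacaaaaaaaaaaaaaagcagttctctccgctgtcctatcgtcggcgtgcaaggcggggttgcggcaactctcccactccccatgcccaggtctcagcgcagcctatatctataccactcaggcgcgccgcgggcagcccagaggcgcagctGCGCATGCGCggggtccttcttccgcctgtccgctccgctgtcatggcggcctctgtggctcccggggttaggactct
Mrps12: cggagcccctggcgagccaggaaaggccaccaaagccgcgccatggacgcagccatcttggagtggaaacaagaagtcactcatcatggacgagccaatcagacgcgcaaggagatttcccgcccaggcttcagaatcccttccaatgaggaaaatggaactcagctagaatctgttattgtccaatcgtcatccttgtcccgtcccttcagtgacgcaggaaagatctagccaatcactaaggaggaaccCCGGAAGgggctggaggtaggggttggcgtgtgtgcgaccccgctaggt
Mrps11: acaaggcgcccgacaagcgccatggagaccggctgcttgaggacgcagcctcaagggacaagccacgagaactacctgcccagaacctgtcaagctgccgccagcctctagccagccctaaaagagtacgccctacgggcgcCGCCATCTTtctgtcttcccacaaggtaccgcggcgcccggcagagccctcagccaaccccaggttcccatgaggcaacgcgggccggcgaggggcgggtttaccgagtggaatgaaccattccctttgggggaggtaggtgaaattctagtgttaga
Mrpl47: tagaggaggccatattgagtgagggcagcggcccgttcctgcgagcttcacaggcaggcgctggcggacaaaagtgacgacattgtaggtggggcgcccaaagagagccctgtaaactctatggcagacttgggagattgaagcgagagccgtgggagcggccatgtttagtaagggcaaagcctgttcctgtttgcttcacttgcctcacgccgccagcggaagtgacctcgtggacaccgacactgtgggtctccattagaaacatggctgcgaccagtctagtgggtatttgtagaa

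The NRF1 motif was in the windows of 12 members (17.9%), beside 5.19% of all genes with windows and 12.1% of measured genes. The ETS motif was in those of 24 members (35.8%), beside 9.93% and 20.7%, and the YY1 motif in those of 10 members (14.9%), beside 2.76% and 6.61%. At least 1 motif was found for 40 members and none for 27, and of 53 matches 0 pairs of different motifs overlapped. A match is a description of these letters and not of binding. Members with and without a motif had ratios that differed little: the median log2 ratio was 0.10 with and 0.19 without the NRF1 motif, 0.15 and 0.12 for ETS, and 0.19 and 0.13 for YY1. Mrpl9, with the highest ratio, and Mrps11 (9.63 and 11.6 RPM, ratio 1.21, 0.893 to 1.64, chosen after its value was seen) each hold a motif. Some other named members follow the order of the windows shown. Mrpl52, Mrps18a and Mrps18b, among the highest ratios, had at least 1 motif, while Mrpl41, Mrpl50, Mrps17, Mrps2 and Mrps31, among the lowest, had none. Others do not follow it: Mrps36 and Mrps5, among the highest ratios, had none of the 3 motifs, while Mrpl27, Mrpl45 and Mrps22, among the lowest, had at least 1. Mrpl20 also had none, but its window ends at 155802927, before its deposited start at 155803618. That window therefore does not describe the start of the counted gene.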

How the data were processed

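Left ventricle RNA was sequenced in 1 library labelled wildtype and 1 labelled Lamp2 knockout, and groups were taken from the genotype labels. The authors deposited 1 table with read counts per gene, which are not normalized, per the file headers. Its deposited RPM values equal the count divided by the library total, times 1000000. An authors' fold and an authors' p-value of no stated method are also deposited, per the file headers, and neither was used. The submitters' processing notes name STAR, mm10 and GRCm38. Not given in the sources used here are the counting tool, the annotation, the use of strand and the treatment of reads with several matches.

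Ratios of RPM carry 95% Clopper-Pearson intervals computed from both read counts, conditional on their sum. Reads are not independent molecules, so intervals cover counting error only, and at about 5 RPM they rest on few reads. A pseudocount of 1 RPM was used for log2 ratios, which understates differences of low genes. The minimum was 5 RPM in the higher library and the call a 2-fold difference. Deposited starts count from 0 and are given plus 1. Transcript lengths and exon overlaps came from GENCODE M21, and copies were found with blastn 2.17.0 (at least 95% identity over 200 bases to an annotated pseudogene). Promoter windows are from RefSeq. Python 3.11.15, numpy 2.4.6, pandas 2.3.3, scipy 1.17.1 and matplotlib 3.10.9 were used, and the rules were tested on simulated data.

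The members and lists were chosen with earlier results of these data known. Named were members called, the 5 highest and 5 lowest log2 ratios (with the pseudocount, which can order genes differently from the printed RPM ratios) and the 4 highest and 3 lowest wildtype levels per kilobase in each subunit, members under the minimum, the 2 highest and 2 lowest genes and every called gene of each pathway list, and every regulator. Members and genes named for an overlap, a shared promoter or a structural class stand outside this rule. Alternatives were pseudocounts of 0.1 or 5 RPM, a minimum of 1 RPM, 20 RPM or none, ratios of 1.5 and 3, 3 rescalings, length bins, means, structural subunits and the removal of overlapped members. Coding length bins, the removal of members with copies and the addition of Mrp63 were added after the data were seen.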

Additional observations from a re-analysis of the deposited data

How the results depend on the processing

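With 1 library per group, no result here has a check between animals, and depth limits the ratio of single members near 5 RPM most. No paired analysis was possible because each group has 1 library. No pseudocount, minimum, rescaling or length correction tried gave a member called higher. The rescalings lower every log2 ratio and the pseudocount of 5 RPM shrinks it, so these settings could not have given one. With a ratio of 1.5 in place of 2, 3 members were called higher and 1 lower, and a total that leaves out mitochondrial transcripts and the 10 most abundant genes gave 1 called lower, Mrpl47. The members' median log2 ratio of 0.15 became 0.034 after division by the median ratio and 0.031 with a trimmed mean. It turned to −0.044 with that total, −0.040 after subtraction of length-bin medians and −0.096 with coding length. The count above 0 was then 31, 31 and 30 of 74, and 29 of 42 without members whose exons overlap another gene. The Mrpl minus Mrps median of −0.15 became −0.074 with length bins, −0.079 with means, −0.024 without overlapped members and −0.047 without members with copies. Mrps28 and Mrps34 turned to −0.021 and −0.014 without mitochondrial transcripts, to −0.091 and −0.043 with length bins and to −0.12 and −0.12 with coding length. The cause of these shifts was not tested. Of 287 values of 31 named members under these settings, 26 had the other sign. These were 3 each of Mrps28 and Mrps34, whose intervals lay above 1, and 20 of Mrpl14, Mrpl33, Mrpl42 and Mrps21, whose intervals included 1.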

Other observations

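For 27 of 76 members, another gene starts within 1000 bases in the opposite direction, and 18 such pairs have both genes measured. The log2 ratios had the same sign in 7 of 18 pairs, 0 partners were called higher or lower, and the partners' median was 0.09. The share of same-sign pairs over all genes was not computed. The genes in this paragraph were chosen after their values were seen. Mrpl47 (ratio 0.513) starts 308 bases from Ndufb5, a subunit of respiratory complex I, which was at 329 and 411 RPM (ratio 1.25, 1.19 to 1.31). Mrps12 (ratio 1.44) starts 187 bases from Sars2, the mitochondrial serine tRNA synthetase, at 6.66 and 4.22 RPM (0.633, 0.406 to 0.977). Mrps18b (ratio 1.48) starts 542 bases from Ppp1r10, at 16.3 and 9.57 RPM (0.588, 0.443 to 0.777). In each of these 3 pairs the genes lay on opposite sides of 1 beyond counting error. Exons of Mrpl47 and Ndufb5 overlap by 616 bases, however, so reads of that pair cannot be told apart. Mrpl46 and Mrps11, a large and a small subunit gene, start 42 bases apart, and went the same way at 11.3 and 14.0 RPM and at 9.63 and 11.6 RPM, with intervals that included 1. Their exons overlap by 173 bases, and whether strand was used in counting is not given.

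Both members under 5 RPM, Mrpl23 and Mrps33, are among the 18 members with a near-identical annotated copy. The 16 measured members with a copy had a median log2 ratio of 0.12 and the 58 without had 0.15. Whether the copies took reads was not tested.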
